A study of Caenorhabditis elegans with 15 samples.

Results

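The constitutive and developmental heat shock genes of *Caenorhabditis elegans* were described here across the last larval stage, the lethargus that closes it, and adulthood. The 10 genes are *hsf-1*, *hsp-1*, *hsp-110*, *dnj-13*, *daf-21*, *hsp-43*, *hsp-25*, *hsp-12.2*, *hsp-12.3* and *hsp-12.6*. Members were the probe sets annotated to one of these genes and to no other gene. All 10 were measured, by 14 probe sets, out of 17118 named genes on the array. *hsp-110*, *dnj-13*, *daf-21* and *hsf-1* had a pair of probe sets each, and the brighter one was counted. The gene long called *daf-21* is listed as *hsp-90* in the annotation, and its older name is kept here.

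The animals were hermaphrodites of the wild-type strain N2, with no mutation or drug in any group, fed DA837 bacteria and grown at 20 °C after release from L1 arrest. L4 animals were taken 42 h after feeding began and were late in the stage, moving and feeding. L4-lethargus animals were taken 45 to 50 h after feeding, 30 to 40 min after pharyngeal pumping had stopped, and Adult animals were labelled young adults. Each stage had 5 Affymetrix arrays, each hybridised with amplified RNA of 1 pool, collected by hand at 22.5 °C in batches of 20 animals. The mean RNA yield per pool stated in the labels was 22.3 ng in L4, 18.6 ng in L4-lethargus and 75.3 ng in Adult. Whole animals were lysed, so fewer cells of a type and less RNA per cell cannot be told apart.

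Heat shock proteins were first found as proteins that cells make in excess when they are heated, but many are also made without stress. HSP90 and HSP70 proteins bind client proteins and use ATP to fold or hold them, J-domain proteins and nucleotide exchange factors drive the HSP70 cycle, and small heat shock proteins bind unfolded proteins without ATP. HSF-1 is the transcription factor that switches on heat shock genes, and in worm larvae it also drives chaperone genes as part of normal development.

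Values are the deposited log2 intensities, and differences are log2 differences of stage means. Adjusted p-values are from limma with Benjamini-Hochberg adjustment over 22548 probe sets, and a gene was said to change at an adjusted p of 0.05 or less. Errors after ± are SDs over 5 arrays. A stage mean under 5.56 log2 is called not above background. Of the single-array values of 32 control probe sets of other organisms, 95% lay below that bound.

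The stage markers moved with the labels, with all 6 adult markers higher and all 8 molt markers lower in L4-lethargus than in L4. Adult replicate 2 had the lowest quality weight of the 15 arrays, 0.178, and a mean correlation of 0.987 with its own stage, against 0.995 for the best Adult array. L4-lethargus replicate 1 was the least typical of its stage, at 0.987 against 0.994. L4 replicates 2 and 3 had weights of 0.452 and 0.462, below the 0.491 of L4-lethargus replicate 1. Both correlated at 0.989 with their own stage. Values that rest on Adult replicate 2 or L4-lethargus replicate 1 are given with and without them. The array medians were 7.47 ± 0.05 log2 in L4, 7.51 ± 0.02 in L4-lethargus and 7.26 ± 0.04 in Adult, so the scaling of the arrays bears on comparisons with Adult. Centring each array on its median moved the median difference of all probe sets by -0.25 for L4-lethargus against Adult and by 0.21 for Adult against L4, and scaling to the hybridisation controls moved them by -0.28 and 0.34. The excess of 3' over 5' signal, a sign of RNA quality, was 0.123 ± 0.118 log2 for *Gapdh* in L4, 0.0648 ± 0.0699 in L4-lethargus and 0.285 ± 0.121 in Adult. For catalase it was 3.22 ± 0.32 in L4, 3.05 ± 0.17 in L4-lethargus and 2.67 ± 0.26 in Adult. Their part in the differences from Adult was not tested.

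In L4-lethargus against L4, *hsp-43* rose and *hsp-12.3*, *daf-21* and *dnj-13* fell. That is 4 of 10 genes changed, where 30.9% of all probe sets changed in this comparison, 15.6% higher and 15.3% lower. The arrays of the 2 stages did not overlap for *hsp-43*, *hsp-12.3* and *daf-21*, against 26.6% of all probe sets. The median difference of the 10 genes was -0.20 log2, beside -0.00 over all probe sets.

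In L4-lethargus against Adult, *hsp-25*, *hsp-12.2* and *hsp-12.3* were higher and *hsp-43*, *hsp-12.6* and *daf-21* lower. Of all probe sets 57% changed, with 25.3% higher and 31.7% lower. With each array centred on its median the split of all probe sets was 18.1% higher and 54.5% lower, and with hybridisation controls 16.8% and 54.6%. The arrays did not overlap for 4 of the 10 genes, *hsp-43*, *hsp-25*, *hsp-12.6* and *daf-21*, against 48.5% of all probe sets. The median of the 10 genes was -0.22 log2, beside -0.09 over all probe sets.

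In Adult against L4, a comparison the series design does not name, *hsp-43* and *hsf-1* rose and *hsp-25* and *hsp-12.3* fell. The *hsp-12.6* probe set was also higher, but it was not above background at any stage. Of all probe sets 59.4% changed, with 31.4% higher and 28% lower, a split that became 49.6% and 21.5% after median centring and 58.0% and 17.7% with hybridisation controls. The arrays did not overlap for 4 of the 10 genes, *hsp-43*, *hsp-25*, *hsp-12.3* and *hsp-12.6*, against 48.4% of all probe sets. The 3 comparisons share arrays pairwise and are not independent of each other.

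**Figure D1:**
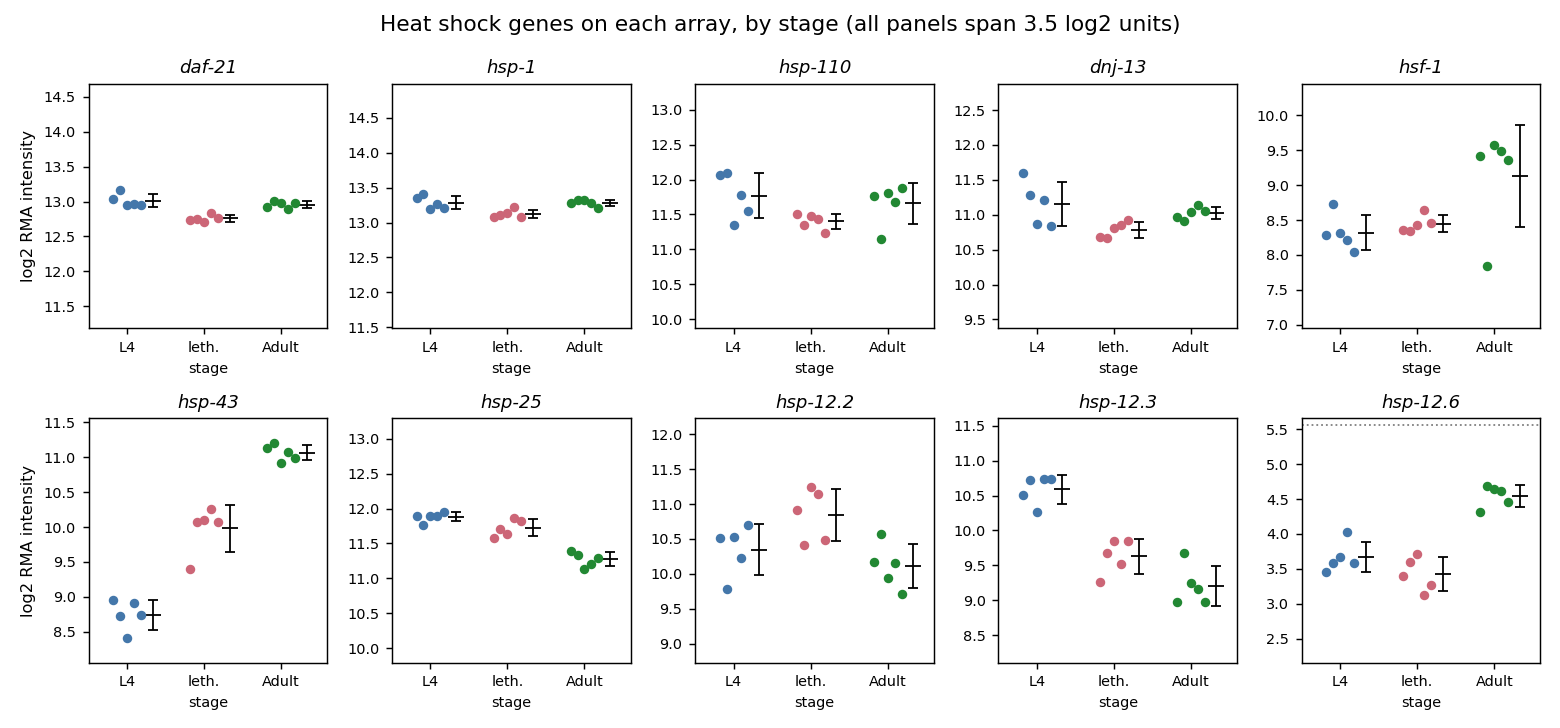
The plot shows the log2 intensity of the 10 genes (vertical axis) on every array, by stage (horizontal axis, with leth. for L4-lethargus, and replicates 1 to 5 from left to right). Bars give the mean and SD over 5 arrays, every panel spans the same range, and the dotted line marks the background bound of 5.56. *hsp-43* steps up through both transitions, *hsp-12.3* steps down, *daf-21* and *hsp-1* dip in L4-lethargus, and *hsp-12.6* stays under the bound.

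*hsp-43* had the widest range of stage means of the 10 genes and was the only one whose steps from L4 to L4-lethargus and on to Adult both passed the test as rises. It encodes a small heat shock protein localised to cells of the vulva and spermatheca. In L4 its 5 arrays read 8.95, 8.72, 8.41, 8.91 and 8.74. In L4-lethargus they read 9.402, 10.07, 10.10, 10.26 and 10.07. In Adult they read 11.13, 11.21, 10.92, 11.08 and 10.99. No array of one stage reached the range of another, and L4-lethargus replicate 1, the lowest of its stage, lay nearest to L4. The means were 8.74 ± 0.21 in L4, 9.98 ± 0.33 in L4-lethargus and 11.07 ± 0.11 in Adult (n = 5 each).

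*hsp-43* was 2.35-fold higher in L4-lethargus than in L4 (log2 difference 1.24, SE 0.14, adjusted p = 5.56e-06). It was 2.12-fold lower in L4-lethargus than in Adult (log2 difference -1.09, SE 0.14, adjusted p = 9.73e-06) and 5.00-fold higher in Adult than in L4 (adjusted p = 1.03e-09). Against the mean of L4 and Adult, L4-lethargus differed by 0.07 log2 with a 95% interval of -0.18 to 0.33, so its level lay near the midpoint. Without L4-lethargus replicate 1 the difference from L4 was 1.38 log2 and that from Adult -0.94. The gene was read from a single probe set, 190097_s_at, whose suffix marks probes shared with other transcripts.

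Oocyte and eggshell markers moved in the same direction as *hsp-43*, and sperm markers moved the other way. All 15 oocyte and eggshell markers were higher in L4-lethargus than in L4, with a median of 2.00 log2, and all 15 were lower in L4-lethargus than in Adult, with a median of -1.21. Their mean over the list ranged over arrays from 8.40 to 9.61 in L4, 10.47 to 11.09 in L4-lethargus and 12.05 to 12.11 in Adult, and none of the 15 was at background in any stage. Of 7 sperm markers, 4 were lower in L4-lethargus than in L4, with a median of -0.62 log2. Against Adult, 4 were higher in L4-lethargus, with a median of 0.35. Among all probe sets, 15.6% were higher and 15.3% lower in L4-lethargus than in L4, and 25.3% higher and 31.7% lower than in Adult. No list of vulva or spermatheca markers was used. The part of these tissues in the values of *hsp-43* was not tested.

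The genes most like *hsp-43* over the 15 arrays, of 11937 others above background, were *ZC155.4*, *D1086.1* and *crn-4*. Likeness was the mean absolute difference of log2 values after each gene was centred on its own mean, and it was 0.146, 0.165 and 0.171 for these genes. *ZC155.4* averaged 7.54 in L4, 8.52 in L4-lethargus and 9.62 in Adult. *D1086.1* averaged 5.23 in L4, which is not above background, 6.45 in L4-lethargus and 7.64 in Adult. *crn-4*, named for a cell-death-related nuclease, averaged 7.13 in L4, 8.44 in L4-lethargus and 9.69 in Adult.

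*hsp-12.3* ran the other way, highest in L4 and lowest in Adult. It belongs to a class of very short small heat shock proteins, and its product and that of *hsp-12.2* form small oligomers that lacked chaperone-like activity in vitro. In L4 its arrays read 10.51, 10.72, 10.26, 10.73 and 10.74. The L4-lethargus arrays read 9.25, 9.68, 9.85, 9.52 and 9.84. The Adult arrays read 8.98, 9.68, 9.25, 9.16 and 8.97. Every L4 array lay above every other array, while L4-lethargus and Adult overlapped, with replicates 1, 2 and 4 of L4-lethargus inside the Adult range.

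*hsp-12.3* was 1.95-fold lower in L4-lethargus than in L4 (log2 difference -0.96, SE 0.15, adjusted p = 1.44e-04) and 2.61-fold lower in Adult than in L4 (log2 difference -1.38, adjusted p = 8.67e-07). L4-lethargus stood 1.34-fold above Adult (log2 difference 0.42, SE 0.15, adjusted p = 0.0425). That last call was lost when any of 10 arrays was left out, with adjusted p-values of just over 0.05 up to 0.116. It was also lost after median centring (0.17 log2, adjusted p = 0.605) and with hybridisation controls (0.15 log2, adjusted p = 0.740), whereas without Adult replicate 2 it was 0.54 log2 (adjusted p = 0.00433). L4 stood above both later stages at every setting tried. L4-lethargus also stayed above Adult at each of them, by 0.15 to 0.63 log2, and the setting decided only whether that difference passed the test.

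The genes most like *hsp-12.3* over the 15 arrays, of 11937 compared, were *stn-2*, a syntrophin gene, *ppt-1*, a palmitoyl-protein thioesterase gene, and *swm-1*, a protease inhibitor gene. Their mean absolute differences from it after centring were 0.126, 0.131 and 0.134 log2. *stn-2* averaged 8.21 in L4, 7.27 in L4-lethargus and 6.80 in Adult, close to the steps of *hsp-12.3*. *swm-1* averaged 10.96 in L4, 9.73 in L4-lethargus and 9.60 in Adult, with most of its fall between L4 and L4-lethargus.

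*hsp-25* was also lower in Adult, by smaller steps and with little scatter between arrays. Its protein is found at the dense bodies and M-lines that anchor the filaments of body wall muscle. In L4 its arrays read 11.90, 11.77, 11.90, 11.90 and 11.94. Those of L4-lethargus were at 11.59, 11.71, 11.64, 11.86 and 11.83. Those of Adult were at 11.39, 11.34, 11.14, 11.20 and 11.30. All Adult arrays lay below all others, while L4 replicate 2 fell inside the L4-lethargus range.

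*hsp-25* was 1.37-fold higher in L4-lethargus than in Adult (log2 difference 0.45, SE 0.08, adjusted p = 1.57e-04) and 1.52-fold lower in Adult than in L4 (log2 difference -0.61, adjusted p = 5.59e-06). Between L4-lethargus and L4 the difference was -0.16 log2 with a 95% interval of -0.32 to 0.01 (adjusted p = 0.264), so these neighbours did not pass the test. The call for L4-lethargus against Adult was lost with hybridisation controls (0.18 log2, adjusted p = 0.248) and kept after median centring (0.20 log2, adjusted p = 0.0366). Adult against L4 shrank to -0.40 log2 after median centring (adjusted p = 2.04e-04). With hybridisation controls it was -0.26, at the threshold (adjusted p = 0.0499), and with cyclic loess -0.65 (adjusted p = 1.55e-06). The gene was read from a single probe set with shared probes, 190900_s_at.

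Body wall muscle markers moved in the same direction as *hsp-25* in the comparisons with Adult. Of 14 markers, 5 were higher in L4-lethargus than in Adult, with a median of 0.17 log2, where 25.3% of all probe sets were higher. In Adult against L4, 11 were lower, with a median of -0.34, where 28% of all probe sets were lower. In L4-lethargus against L4, 5 were lower, beside 15.3% of all probe sets. Among these 5 were *unc-22* at -0.52 log2 and *ttn-1* at -0.53, both genes of giant muscle proteins. The mean of the list ranged over arrays from 11.65 to 11.84 in L4, 11.40 to 11.53 in L4-lethargus and 11.21 to 11.33 in Adult, with no marker at background. Neuron and intestine markers shifted further in the comparisons with Adult, but not in L4-lethargus against L4. There, 0 of 10 neuron markers changed, with a median of -0.03 log2. Of the 9 intestine markers, 2 were higher and 2 lower there, with a median of -0.05, beside 15.6% and 15.3% of all probe sets. Of 10 neuron markers, 8 were higher in L4-lethargus than in Adult, with a median of 1.14 log2, and 9 were lower in Adult than in L4, with a median of -1.22. Of 9 intestine markers, 8 were higher in L4-lethargus than in Adult, at a median of 0.63, and 8 were lower in Adult than in L4, at a median of -0.57. Array means of the neuron list ranged from 9.51 to 9.76 in L4, 9.55 to 9.76 in L4-lethargus and 8.304 to 8.802 in Adult, and those of the intestine list from 11.07 to 11.28, 11.18 to 11.28 and 10.39 to 10.56 in the same order. None of these markers was at background in any stage. The part of these 3 tissues in the values of *hsp-25* and *hsp-12.3* was not tested.

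*hsp-12.2* was the only one of the 10 genes to pass the test as higher in L4-lethargus than the mean of the other stages. In L4 its arrays read 10.51, 9.78, 10.52, 10.22 and 10.70. In L4-lethargus they read 10.92, 10.41, 11.24, 11.15 and 10.49. In Adult they read 10.17, 10.57, 9.94, 10.15 and 9.71. Replicates 1, 3 and 4 of L4-lethargus exceeded every other array, but replicates 2 and 5 fell within the ranges of both other stages.

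Its means were 10.35 ± 0.36 in L4, 10.84 ± 0.38 in L4-lethargus and 10.11 ± 0.32 in Adult. *hsp-12.2* was 1.66-fold higher in L4-lethargus than in Adult (log2 difference 0.73, SE 0.20, adjusted p = 0.00952), a call lost after median centring (0.48 log2, adjusted p = 0.0648) and with hybridisation controls (0.46 log2, adjusted p = 0.124). Against L4 the difference was 0.50 log2, with a 95% interval of 0.07 to 0.92 and an adjusted p of 0.136. Against the mean of L4 and Adult it was 0.61 log2 (adjusted p = 0.0169), and 1.53-fold. Without L4-lethargus replicate 3 the adjusted p was 0.0676, and without replicate 4 it was 0.0582. In this contrast 41.8% of all probe sets changed, 18.1% higher and 23.7% lower, and after median centring 13.9% were higher and 42.2% lower.

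*hsp-12.6*, a gene of the same short class known as a target of the insulin pathway factor DAF-16, was not above background at any stage. Its arrays ranged from 3.46 to 4.02 in L4, 3.13 to 3.72 in L4-lethargus and 4.32 to 4.69 in Adult, all under 5.56. Within that dim range the Adult arrays all lay above the others. The probe set differed by -1.12 log2 between L4-lethargus and Adult (adjusted p = 1.90e-06) and by 0.88 between Adult and L4 (adjusted p = 2.31e-05). It differed by -0.24 between L4-lethargus and L4 (95% interval -0.51 to 0.02, adjusted p = 0.309). No fold is given, since the values are near those of probe sets with no worm target. *hsp-12.3* and *hsp-12.6* are neighbouring protein-coding genes in the RefSeq annotation.

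The genes most like *hsp-12.6* were *lir-3*, *uev-3* and *T11F9.14*, at mean absolute differences of 0.117, 0.120 and 0.127 log2 among 11937 genes. *uev-3*, which encodes a ubiquitin-conjugating enzyme variant, averaged 8.92 in L4, 8.92 in L4-lethargus and 9.95 in Adult. Since *hsp-12.6* was not above background, this likeness describes its probe set.

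**Figure D2:**
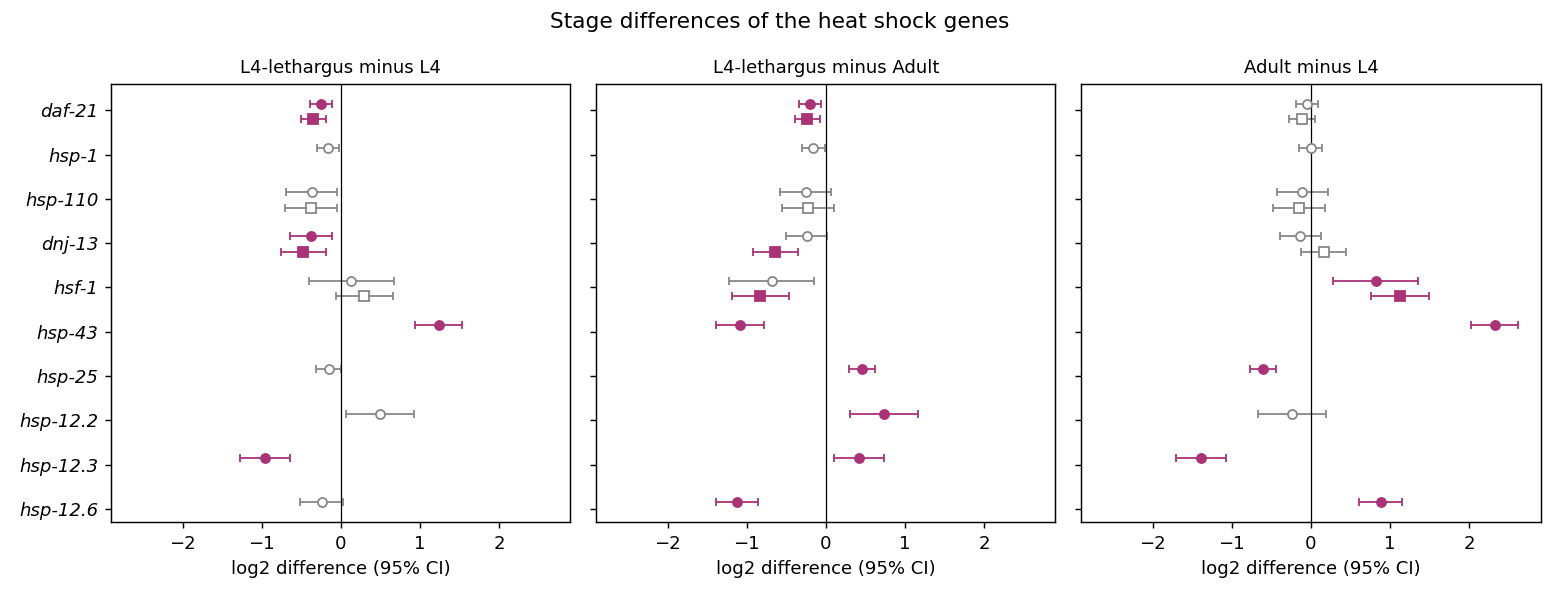
The plot gives the log2 difference of each gene (horizontal axis) with its 95% confidence interval in the 3 comparisons, with circles for the counted probe set and squares for the dimmer one of a pair. Filled symbols mark an adjusted p of 0.05 or less. Differences of *daf-21*, *hsp-1*, *hsp-110* and *dnj-13* lie within 0.7 log2 of 0 in all 3 panels, while *hsp-43* reaches 2.32 in Adult against L4.

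*daf-21*, which encodes the cytosolic HSP90 of the worm and takes its name from mutants that form dauer larvae, was lowest in L4-lethargus by a small and even step. In L4 its arrays read 13.03, 13.17, 12.95, 12.96 and 12.95. The L4-lethargus arrays read 12.73, 12.75, 12.71, 12.84 and 12.76. The Adult arrays read 12.93, 13.01, 12.98, 12.90 and 12.97. On this counted probe set, all 5 L4-lethargus arrays lay below all 10 arrays of the other stages.

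*daf-21* was 1.19-fold lower in L4-lethargus than in L4 (log2 difference -0.25, SE 0.07, adjusted p = 0.0128) and 1.15-fold lower than in Adult (log2 difference -0.20, SE 0.07, adjusted p = 0.0311). Adult and L4 differed by -0.05 log2 (95% interval -0.19 to 0.09, adjusted p = 0.974), so their order is not settled. Its dimmer probe set, 191090_at, has no shared probes, and gave -0.35 log2 against L4 (adjusted p = 0.00301) and -0.24 against Adult (adjusted p = 0.0238). There L4-lethargus and Adult overlapped, with L4-lethargus replicate 4 at 12.71 and Adult replicate 4 at 12.68. On the counted probe set the call against L4 was lost with cyclic loess (adjusted p = 0.116) and hybridisation controls (adjusted p = 0.142). The dimmer probe set kept it with cyclic loess (-0.26, adjusted p = 0.0159) and hybridisation controls (-0.28, adjusted p = 0.0311). Against Adult the counted probe set was -0.45 after median centring (adjusted p = 1.13e-04) and -0.47 with hybridisation controls (adjusted p = 5.09e-05). With cyclic loess it was -0.18 (adjusted p = 0.0449). The call of the counted probe set against Adult was lost without any of 6 arrays, at adjusted p-values of 0.0559 to 0.0755. These were L4-lethargus replicates 1, 2, 3 and 5 and Adult replicates 3 and 5.

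*hsp-1* encodes the constitutive HSP70 (HSC70) of the cytosol, and its profile ran alongside that of *daf-21* without passing the test. In L4 its arrays read 13.35, 13.41, 13.20, 13.27 and 13.21. Those of L4-lethargus were at 13.08, 13.10, 13.14, 13.23 and 13.07. Those of Adult were at 13.27, 13.33, 13.32, 13.28 and 13.21. L4-lethargus replicate 4 overlapped both other stages, and the other 4 arrays of L4-lethargus lay below them.

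*hsp-1* differed by -0.16 log2 between L4-lethargus and L4 (95% interval -0.30 to -0.02, adjusted p = 0.136) and by -0.16 between L4-lethargus and Adult (95% interval -0.30 to -0.02, adjusted p = 0.0971). Adult and L4 differed by -0.00 log2 (95% interval -0.15 to 0.14). After median centring the difference from Adult was -0.41 (adjusted p = 3.22e-04), and with hybridisation controls -0.43 (adjusted p = 1.46e-04). Over the 15 arrays *hsp-1* was closer to *daf-21* than to any other of 11937 genes, with a mean absolute difference of 0.0436 log2 after centring. Only *tomm-22*, which encodes a subunit of the import complex of the mitochondrial outer membrane, was closer to *daf-21*, at 0.0341. Both chaperone genes are bright and vary little, and they share arrays and scaling, so this is a description of 15 arrays.

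*dnj-13* encodes a class B J-domain protein that hands clients to HSP-1, and it fell in L4-lethargus against L4. In L4 the arrays of its counted probe set read 11.60, 11.29, 10.87, 11.21 and 10.84. In L4-lethargus they read 10.68, 10.66, 10.81, 10.85 and 10.92. In Adult they read 10.97, 10.91, 11.05, 11.14 and 11.06. L4 replicates 3 and 5 lay within the L4-lethargus range, and replicates 1, 2 and 4 were the highest of all 15 arrays.

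The difference was -0.38 log2, 1.30-fold lower in L4-lethargus than in L4 (SE 0.12, adjusted p = 0.0482). It lost its call when any of 12 of the 15 arrays was left out, with adjusted p-values of 0.0531 to 0.125. It kept the call without L4 replicate 3, L4 replicate 5 or Adult replicate 2. The call was also lost after a second quantile normalization (adjusted p = 0.0738) and with cyclic loess (adjusted p = 0.0954). So it was with hybridisation controls (adjusted p = 0.132) and with L4 and L4-lethargus fitted alone (adjusted p = 0.104). Against Adult the counted probe set differed by -0.24 log2 (95% interval -0.50 to 0.02, adjusted p = 0.200). This difference passed after median centring (-0.49, adjusted p = 0.00760), with hybridisation controls (-0.52, adjusted p = 0.00241) and with these 2 stages fitted alone (adjusted p = 0.0408). The dimmer probe set, 188802_at, was -0.47 against L4 (adjusted p = 0.0206) and -0.64 against Adult (adjusted p = 0.00111). Adult and L4 differed by -0.14 log2 on the counted probe set and by 0.16 on the dimmer one, and neither passed the test.

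*hsp-110* encodes a nucleotide exchange factor that works with HSP-1 and J-domain proteins to dissolve aggregates. In L4 its arrays read 12.06, 12.098, 11.35, 11.78 and 11.56. The L4-lethargus arrays read 11.50, 11.35, 11.47, 11.44 and 11.24. The Adult arrays read 11.76, 11.15, 11.81, 11.69 and 11.88. The 5 L4-lethargus arrays lay close together, while L4 was widely spread and Adult replicate 2 stood far below the other Adult arrays.

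*hsp-110* differed by -0.37 log2 between L4-lethargus and L4 (95% interval -0.69 to -0.05, adjusted p = 0.145), and its other probe set by -0.38 (adjusted p = 0.138). With array weights the adjusted p against L4 was 0.0232. Against Adult the difference was -0.26 log2 (adjusted p = 0.308). Without L4 replicate 3 it was -0.47 against L4, with an adjusted p of 0.0362. Without Adult replicate 2 it was -0.38 against Adult, with an adjusted p of 0.0390. Its other probe set was then -0.39 against Adult (adjusted p = 0.00705) and -0.38 against L4 (adjusted p = 0.0111). The difference from Adult also passed after median centring (-0.51, adjusted p = 0.0250), with hybridisation controls (-0.53, adjusted p = 0.00880) and with array weights (-0.40, adjusted p = 0.00428).

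**Figure D3:**
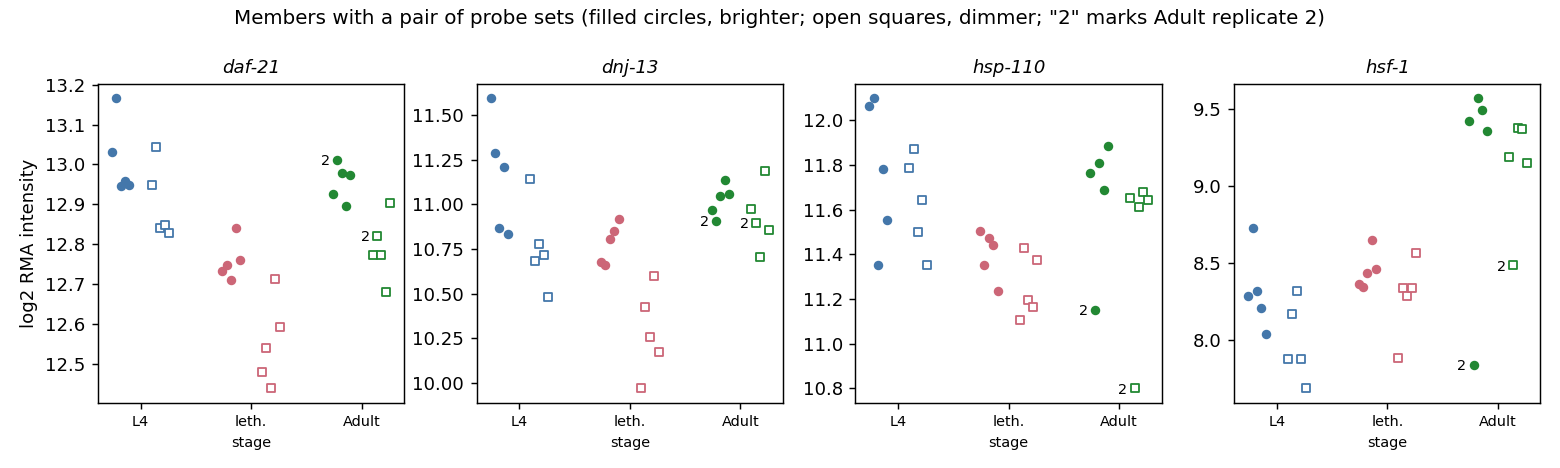
The plot shows log2 intensity (vertical axis) on every array by stage for the 4 genes with a pair of probe sets, as filled circles for the brighter probe set and open squares for the dimmer one. The vertical axes differ between panels, and the digit 2 marks Adult replicate 2. That array lies apart from the other Adult arrays on both probe sets of *hsp-110* and *hsf-1* and within their range on the dimmer probe sets of *daf-21* and *dnj-13*.

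*hsf-1* itself rose in Adult against L4 and did not pass the test between L4-lethargus and L4. In L4 the arrays of its counted probe set read 8.29, 8.72, 8.32, 8.21 and 8.04. Those of L4-lethargus were at 8.36, 8.34, 8.43, 8.65 and 8.46. Those of Adult were at 9.42, 7.84, 9.57, 9.49 and 9.36. Of the Adult arrays 4 lay above all arrays of the earlier stages, and replicate 2 lay below all of them.

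Its means were 8.32 ± 0.25 in L4, 8.45 ± 0.12 in L4-lethargus and 9.14 ± 0.73 in Adult. *hsf-1* was 1.77-fold higher in Adult than in L4 (log2 difference 0.82, SE 0.25, adjusted p = 0.0195), and without Adult replicate 2 the difference was 1.14 log2 (adjusted p = 7.33e-07). The call was lost without L4 replicate 5 or Adult replicate 1, 3 or 4, at adjusted p-values of 0.0518 to 0.0606, with replicate 2 still in the fit. L4-lethargus against Adult was -0.69 log2 (adjusted p = 0.0542), and without Adult replicate 2 it was -1.01 (adjusted p = 3.64e-06). It was -0.94 after median centring (adjusted p = 0.00860) and -0.96 with hybridisation controls (adjusted p = 0.00692). L4-lethargus and L4 differed by 0.13 log2, with a 95% interval of -0.40 to 0.67.

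On the dimmer probe set of *hsf-1*, Adult replicate 2 read 8.49 and the other Adult arrays 9.18, 9.37, 9.37 and 9.15. The L4 arrays there read 7.88, 8.17, 8.32, 7.88 and 7.69, and those of L4-lethargus 7.89, 8.34, 8.29, 8.34 and 8.56. Adult was 2.18-fold higher than L4 on this probe set (adjusted p = 4.14e-05), with no overlap of arrays, and L4-lethargus was -0.83 log2 against Adult (adjusted p = 9.32e-04). Both *hsf-1* probe sets have shared probes. The oocyte markers given beside *hsp-43* were also highest in Adult, and their part in the values of *hsf-1* was not tested.

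Among genes whose products bind HSF-1, *ddl-1* was highest in Adult as well. *ddl-1* and *hsb-1* encode partners that hold HSF-1 in an inhibited complex. *ddl-1* averaged 9.07 in L4, 9.17 in L4-lethargus and 10.06 in Adult, and L4-lethargus was 1.85-fold lower than Adult (adjusted p = 1.30e-05). *hsb-1* was 1.24-fold lower in L4-lethargus than in Adult (adjusted p = 0.0297). *ddl-2*, the third measured gene of this list, passed in no comparison.

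Among the co-chaperones of HSP90, 7 of 8 measured genes were lower in L4-lethargus than in L4, and 7 of 8 lower than in Adult. Of all probe sets, 15.3% were lower than in L4 and 31.7% lower than in Adult, also for the lists below. The list median was -0.40 log2 against L4, beside 0.00 over named genes, and -0.38 against Adult, beside -0.08. *sti-1*, whose product bridges HSP70 and HSP90, averaged 11.56 in L4, 10.90 in L4-lethargus and 11.26 in Adult, 1.58-fold lower in L4-lethargus than in L4 (adjusted p = 5.66e-04). *cdc-37*, whose product brings kinases to HSP90, averaged 10.67 in L4, 10.14 in L4-lethargus and 10.55 in Adult, 1.45-fold lower in L4-lethargus than in L4 (adjusted p = 4.38e-04). Both means were lowest in L4-lethargus, as was that of *daf-21*.

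The exception against L4 was *pph-5*, a phosphatase gene, at -0.19 log2 (adjusted p = 0.741), although it had the largest fall of the list against Adult, at -0.61 (adjusted p = 0.00479). The exception against Adult was *unc-45*, which encodes the myosin chaperone, at 0.19 log2 (adjusted p = 0.0560). *unc-45* was also the only gene of this list to change in Adult against L4, at -0.60 log2 (adjusted p = 2.09e-06). *hsp-75*, counted in this list, encodes the HSP90 protein of mitochondria and was -0.50 against Adult (adjusted p = 0.00150). With cyclic loess the list gave 5 lower against L4, and 6 lower and 1 higher against Adult, and with hybridisation controls 5 lower against L4. In Adult against L4 the list median was -0.04 log2, and 0.17 after median centring and 0.31 with hybridisation controls.

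Among co-chaperones of HSP70, 1 of 5 measured genes was lower in L4-lethargus than in L4. This was *bag-1*, a nucleotide exchange factor gene, at -0.33 log2 (adjusted p = 0.00924). Against Adult *bag-1* was lower, at -0.49 (adjusted p = 1.58e-04), and *unc-23*, a BAG-domain gene that acts with HSP-1 in muscle attachment, was higher, at 0.78 (adjusted p = 8.15e-04). *chn-1*, which encodes the ubiquitin ligase CHIP, was 1.97-fold higher in Adult than in L4 (adjusted p = 1.89e-04).

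The other J-domain genes did not move as one with *dnj-13*. Of 28 measured, 2 were higher and 6 lower in L4-lethargus than in L4, with a median of -0.04 log2 that turned to 0.01 with cyclic loess and 0.02 with hybridisation controls. Against Adult 4 were higher and 17 lower, with a median of -0.41, where 25.3% of all probe sets were higher and 31.7% lower. *dnj-27*, which encodes a J-domain protein of the endoplasmic reticulum, was 3.24-fold lower in L4-lethargus than in L4 (adjusted p = 6.03e-08), and *dnj-28* was 1.86-fold lower (adjusted p = 3.63e-04). *dnj-26* was 2.37-fold lower in L4-lethargus than in Adult (adjusted p = 5.48e-06) and *dnj-7* was 2.04-fold higher (adjusted p = 7.10e-08).

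The TRiC chaperonin, a ring that folds actin and tubulin, had 8 measured subunit genes. Of these, 4 were lower in L4-lethargus than in L4 and 5 lower than in Adult, with medians of -0.31 and -0.34 log2. With cyclic loess or hybridisation controls 1 of 8 was lower against L4, and without Adult replicate 2 all 8 were lower against Adult. *cct-3* was 1.52-fold lower in L4-lethargus than in L4 (adjusted p = 0.00284) and *cct-4* 1.41-fold lower than in Adult (adjusted p = 2.82e-05). Prefoldin, which passes clients to TRiC, had 1 of 6 genes lower in each of these comparisons, beside 15.3% and 31.7% of all probe sets. These were *pfd-4* at -0.29 log2 against L4 (adjusted p = 0.00376) and *pfd-6* at -0.27 against Adult (adjusted p = 0.0362).

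Mitochondrial chaperone genes had none of 5 changed in L4-lethargus against L4, by limma's adjusted p, with a median of -0.26 log2, and 3 were lower at an unadjusted p under 0.05. Against Adult *dnj-10* and *dnj-21*, J-domain genes of mitochondria that also stand in the J-domain list, were lower at -0.44 (adjusted p = 4.50e-04) and -0.40 (adjusted p = 0.00111).

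**Figure D4:**
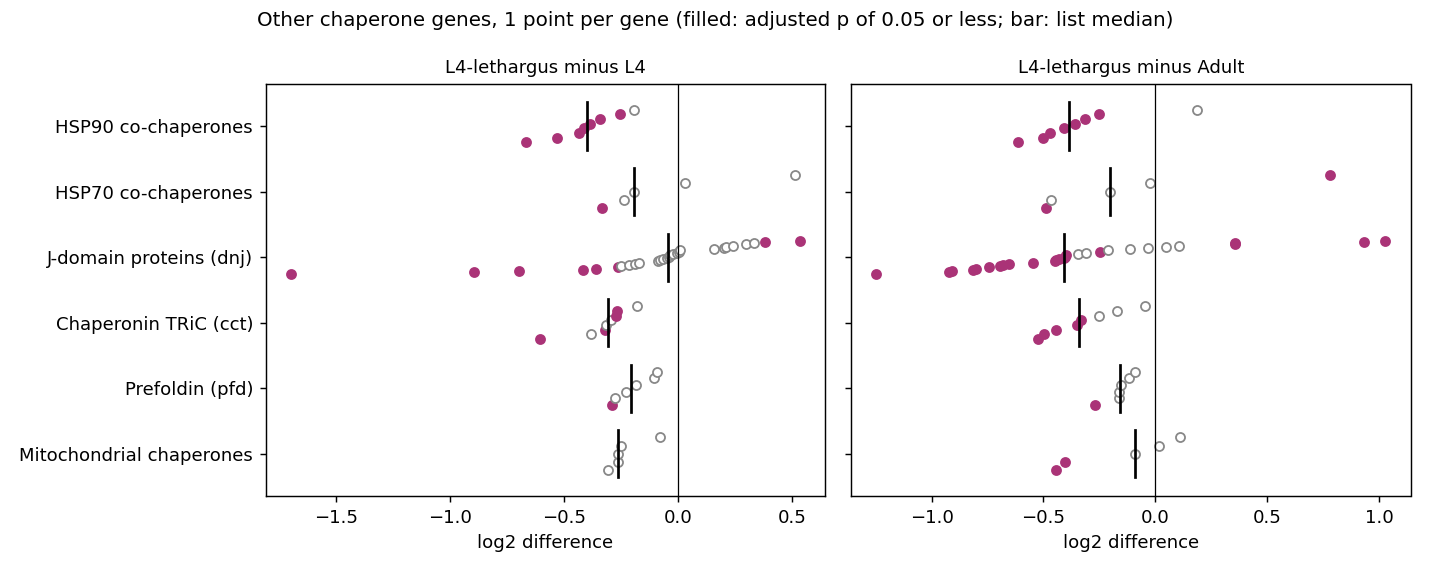
The plot gives the log2 difference of each other chaperone gene (horizontal axis), with 1 point per gene and 1 row per list, for L4-lethargus minus L4 and L4-lethargus minus Adult. Filled points have an adjusted p of 0.05 or less and vertical bars mark list medians. The HSP90 co-chaperones lie left of 0 in the first panel, and the J-domain genes spread over both sides.

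The heat-induced genes, which mark a stress response, had their highest means in L4. *hsp-16.2* averaged 12.12 ± 0.41 in L4, 8.56 ± 0.45 in L4-lethargus and 6.94 ± 0.66 in Adult. *hsp-16.41* averaged 10.61 ± 0.81 in L4, 6.07 ± 0.32 in L4-lethargus and 5.20 ± 0.36 in Adult, which is not above background. *hsp-70* averaged 7.94 ± 1.07 in L4, 6.94 ± 0.42 in L4-lethargus and 6.22 ± 0.67 in Adult. For *hsp-70* L4-lethargus differed from L4 by -1.01 log2, did not pass the test (adjusted p = 0.158) and overlapped it, while Adult differed from L4 by -1.73 (adjusted p = 0.00396). The *hsp-16* genes are close copies of each other, so their signals may not be separate.

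Among the L4 arrays, replicates 1, 2 and 4 had the 3 highest values of *hsp-70* (9.57, 7.71 and 8.39) and *hsp-16.2*, and replicates 3 and 5 the lowest (7.05 and 7.01 for *hsp-70*). Of the 10 constitutive genes, 4 had the same 3 arrays highest, *hsp-110*, *dnj-13*, *hsp-1* and *daf-21*, and 6 did not. The dimmer probe set of *dnj-13* was highest in replicates 1, 3 and 4. This order was looked for after the values were seen. This is a description of 5 arrays, and the part of a stress response in the L4 values of the constitutive genes was not tested.

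Of 9 other measured small heat shock genes, 2 were higher and 5 lower in L4-lethargus than in L4, and 5 higher and 2 lower in L4-lethargus than in Adult. The shares of all probe sets were 15.6% higher and 15.3% lower against L4, and 25.3% and 31.7% against Adult. *hsp-16.41* and *hsp-16.2* had the largest falls against L4, at -4.54 log2 (adjusted p = 9.32e-09) and -3.56 (adjusted p = 1.08e-07). *ZK1128.7* was 2.55-fold higher in L4-lethargus than in Adult (adjusted p = 2.43e-08) and averaged 9.34 in L4, 10.11 in L4-lethargus and 8.76 in Adult.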

How the data were processed

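Per the submitters' processing notes, the authors made the deposited log2 intensities with RMA, which corrects background, quantile-normalizes and summarises each probe set. Biotin-labelled RNA was hybridised to Affymetrix C. elegans Genome Arrays, per the labels, and the number of arrays limits the precision. The sources used here give no build for the probe annotation, and no coordinates are printed. Of 22625 probe sets, 77 controls were left out. Of the other 22548, 20766 named 1 gene, 887 several and 895 none in the table used. Of those naming 1 gene, 20701 were matched by gene identifier to RefSeq, with 0 symbols changed.

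Comparisons were fitted with limma 3.58.1 in R 4.3.3 on 15 arrays, with a mean for each of 3 stages. Each p was doubled, following the series design (a multiplier of 2), before Benjamini-Hochberg adjustment over all probe sets. R/maanova, which the design names, was not run. The procedure was also run on simulated data with independent errors. These held no outlying array and no shift between arrays, so that run does not bear on such features of the real arrays. Pools of a stage are separate samples per the labels, and nothing states that they were grown apart, so p-values measure the spread between pools. RMA makes arrays alike, so a change in total RNA cannot be read, and it compresses dim folds.

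All 10 members were named. Of the other lists, the rule took the 2 largest differences among changed genes per list and comparison, and the 3 genes most like each of the 3 members with the widest range of stage means. *pph-5* and *unc-45*, the lists' exceptions, and *ddl-2* were also named after their values were seen. Members and lists were chosen with earlier results of these data known. Replicate numbers are shared by the stages, but same-numbered arrays did not deviate together. Alternatives were 4 other scalings, a filter on dim probe sets (40th percentile), p-values not doubled, 2 stages alone, a trended robust prior, array weights, a replicate block, each array left out, other probe set rules, and no shared-probe probe sets. Leaving out L4-lethargus replicate 1 and Adult replicate 2 together was chosen after seeing the data. Plots were made in matplotlib 3.10.9.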

Additional observations from a re-analysis of the deposited data

Results flagged for a closer look

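Of 42 sets of 5 arrays (14 probe sets at 3 stages), 6 held an array whose gap to its nearest neighbour exceeded 0.71 of the stage's range (Dixon's critical value). Chance alone gives about 1 such set in 20. Of the 6, 4 were Adult replicate 2. That array read 11.15 for *hsp-110*, with the nearest Adult array at 11.69, and 10.801 on its other probe set, with the nearest at 11.61. It read 7.84 for *hsf-1*, with the nearest at 9.36, and 8.49 on the other probe set, with the nearest at 9.15. L4-lethargus replicate 1 read 9.402 for *hsp-43*, with the nearest array of its stage at 10.07. L4 replicate 2 read 11.77 for *hsp-25*, with the nearest at 11.90.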

How the results depend on the processing

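Of the comparisons of the 10 genes under the alternatives, 989 kept their direction and their side of the threshold, 51 gained a call, 70 lost one and 24 changed sign. The cause of the changes was not tested. Calls of *hsp-43* held wherever its probe set was kept, as did those of *hsp-12.3* against L4.

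In L4-lethargus against L4, 1 gene was higher and 3 lower. Without shared-probe probe sets, which left 7 of the 10 genes, 0 were higher, and with cyclic loess and with hybridisation controls 1 was lower. In L4-lethargus against Adult, 3 were higher and 3 lower. The higher count was 1 after median centring and 0 with hybridisation controls. The lower count was 7 after median centring, 5 after a second quantile normalization, 7 with hybridisation controls, and 5 with p-values not doubled, with array weights, with the probe set of largest spread and with the mean of probe sets. In Adult against L4, 3 were higher and 2 lower, against 5 higher with hybridisation controls, and 1 higher and 1 lower without shared-probe probe sets. Against the mean of L4 and Adult, 1 was higher and 3 lower. The higher count was 2 with quantile normalization and with cyclic loess and 0 with hybridisation controls, and the lower count was 6 with median centring, hybridisation controls and array weights. The counts on the deposited values that involve Adult include *hsp-12.6*, which was not above background at any stage.

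With each array left out in turn, the counts ranged from 1 to 1 higher and 2 to 4 lower (L4-lethargus against L4), 2 to 3 and 2 to 5 (against Adult), 2 to 3 and 2 to 2 (Adult against L4), and 0 to 1 and 2 to 5 (against the mean). Without L4-lethargus replicate 1 and Adult replicate 2 together, no count left the ranges above. The 0 against the mean came without L4-lethargus replicate 3 or replicate 4, where 2 and 1 genes were higher at an unadjusted limma p under 0.05. In each of the other 3 settings with 0 genes higher, 1 was higher at that p. Without shared-probe probe sets the probe sets changed fell to 4606 from 6966, 8465 from 12862, 8873 from 13390 and 6118 from 9432 in the same order. That filter took out 6711 of the 22548 probe sets tested. The lower counts are thus over fewer probe sets and do not measure how far changes rest on shared probes.

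Of the differences that turned sign, 3 passed the test in the new direction, *hsp-1* in Adult against L4 after median centring (adjusted p = 0.0477) and with hybridisation controls (adjusted p = 0.00125) and *daf-21* there with hybridisation controls (adjusted p = 0.00378). For Adult against L4, *hsp-1* was 0.20 (median centring), 0.0445 (quantile), 0.10 (cyclic loess) and 0.34 (hybridisation controls), and -0.0281 to 0.0254 with arrays left out. *hsp-110* was 0.0988 (median centring), 0.23 (hybridisation controls), 0.0303 (array weights) and 0.0156 without both arrays, and -0.22 to 0.0156 with arrays left out. *daf-21* was 0.16, 0.0250, 0.0170 and 0.29 under the same 4 scalings. *dnj-13* was 0.0737 (median centring), 0.21 (hybridisation controls), 0.16 (largest spread) and 0.0140 (mean of probe sets), and *hsp-12.2*, -0.24 as deposited, was 0.11 with hybridisation controls. Against the mean of L4 and Adult, *hsp-43* was -0.0733 (median centring) and -0.0292 (hybridisation controls), and *hsp-25* -2.5e-04 (median centring).

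Same-numbered arrays of different stages correlated at -0.24 to 0.13 in their deviations (15 pairs), and others at -0.20 to 0.24 (60 pairs). Same-numbered arrays thus deviated together no more than others did. Such correlations cannot show whether those pools were collected or processed together. With the replicate block 3 of 40 calls changed, *dnj-13* against L4 (-0.38 log2, adjusted p = 0.0941) and against the mean (adjusted p = 0.0921) and *daf-21* in L4-lethargus against Adult (adjusted p = 0.0621).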
